A study of Mus musculus with 2 samples.

Results

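Effector cytokines are the products through which group 2 innate lymphoid cells (ILC2s) act on the lung. The genes described here are Il5, Il13, Il4, Il9, Il6, Il2, Il3, Csf2 and Il17a, together with Areg, which encodes the growth factor amphiregulin. These 10 genes were chosen by name, out of 32285 genes in the files, and were read in every barcode that had 500 or more detected genes and no more than 10% of its unique molecular identifiers (UMIs, the tags that count each captured mRNA once) from mitochondrial genes. That filter kept 8394 of 10866 WT barcodes and 7087 of 9495 Pac1-/- barcodes.

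ILC2s were sorted from lungs of young adult C57BL/6J mice as live lineage- CD90.2+ ST2+ Sca-1+ cells and profiled by droplet-based scRNA-Seq. The groups were WT mice and Pac1-/- mice, and the knockout was not restricted to ILC2s. Cells of several mice were mixed before loading, so each genotype was 1 library and no cell could be traced to a mouse. The labels of these samples give no treatment, whereas the series as a whole covers resting and activated ILC2s, so whether these cells had been stimulated is not known here. Pac1, listed as Dusp2, encodes a phosphatase of activated lymphocytes, and the design sets ILC2s without it against ILC2s that have it. Because every genotype had a single library, differences had no replicate check and were not tested, and all 95% intervals cover counting error only. Differences between mice, sorts and libraries cannot be told apart from genotype.

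IL-5 supports eosinophils, and IL-13 drives mucus production and goblet cell change in the airway. IL-4 shares a receptor chain with IL-13, whereas GM-CSF (Csf2) acts on macrophages, dendritic cells and granulocytes. Amphiregulin binds the EGF receptor and is known for its part in epithelial repair. IL-2 and IL-9 act largely on lymphocytes and mast cells, IL-3 on basophils and mast cells, IL-6 on many tissues, and IL-17A on epithelium and neutrophil recruitment. IL-17A is best known as a product of type 3 lymphocytes.

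The kept barcodes held 54579034 UMIs in WT and 58338886 in Pac1-/-, with medians of 4186.5 and 5577 UMIs per barcode. The median mitochondrial share was 2.5% in WT and 3.27% in Pac1-/-, and its part in the results was not tested. At least 2 of 9 ILC2 markers were found in 98.9% of WT and 98.8% of Pac1-/- barcodes. Gata3 stood at 1206 and 1035 CPM (the UMIs of a gene, scaled so that every library has the same total), and Il1rl1, which encodes ST2, at 1112 and 992 CPM. Dusp2 had 1419 UMIs in WT and 5 UMIs in Pac1-/-, the direction the labels give. Markers of another cell type led in 23 WT (0.274%) and 45 Pac1-/- barcodes (0.635%). Among kept barcodes, 15 barcode sequences occurred in both libraries.

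Of the 10 genes, 5 lie together on chromosome 11 (mouse genome GRCm38, the same assembly as mm10), over 664 kb. In order these were Il4 (ENSMUSG00000000869; chr11:53602982-53618669, minus strand), Il13 (ENSMUSG00000020383; chr11:53631324-53634702, minus strand), Il5 (ENSMUSG00000036117; chr11:53720794-53725106, plus strand), Csf2 (ENSMUSG00000018916; chr11:54247271-54249667, minus strand) and Il3 (ENSMUSG00000018914; chr11:54265303-54267277, minus strand). Il4 and Il13 were separated by 12.7 kb, Il13 and Il5 by 86.1 kb, Il5 and Csf2 by 522 kb, and Csf2 and Il3 by 15.6 kb. Areg (ENSMUSG00000029378; chr5:91139599-91148432) and Il6 (ENSMUSG00000025746; chr5:30013114-30019981) are far apart on chromosome 5, and Il17a (ENSMUSG00000025929) lies at chr1:20730905-20734496, all on the plus strand. Il2 (ENSMUSG00000027720; chr3:37120523-37125959) and Il9 (ENSMUSG00000021538; chr13:56479277-56482246) are on the minus strand. All 10 genes are annotated as protein coding, and none overlaps a gene on its own strand. Genes on the other strand overlap Il5 (Gm12214), Il2 (Adad1) and Csf2 (Gm12223).

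The sequences just upstream of Il5, Il13, Il4 and Areg are shown because the results on single cells turn on these genes. Il5 and Il13 were the lead pair, Il4 is their neighbour, and Areg is the abundant member outside chromosome 11. Each stretch is the 250 bases before the start of the gene in RefSeq (GRCm38.p6), written 5′ to 3′ on the strand of the gene. Capitals mark every match to 5 short motifs, searched on both strands. GATAA is the core bound by GATA factors such as GATA3. GGAAA is the core bound by NFAT factors, which act on many cytokine genes. TGANTCA is the core bound by AP-1, with any base at N. TGACGTCA is the full cAMP response element. TATAA is the core of the TATA box, and matches of different motifs or strands may overlap.
Il5, chr11:53720544-53720793, plus strand: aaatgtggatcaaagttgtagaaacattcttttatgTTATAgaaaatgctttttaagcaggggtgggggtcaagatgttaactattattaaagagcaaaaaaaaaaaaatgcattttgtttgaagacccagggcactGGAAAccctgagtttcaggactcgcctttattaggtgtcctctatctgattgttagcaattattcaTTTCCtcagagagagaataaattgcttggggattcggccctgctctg
Il13, chr11:53634703-53634952, minus strand: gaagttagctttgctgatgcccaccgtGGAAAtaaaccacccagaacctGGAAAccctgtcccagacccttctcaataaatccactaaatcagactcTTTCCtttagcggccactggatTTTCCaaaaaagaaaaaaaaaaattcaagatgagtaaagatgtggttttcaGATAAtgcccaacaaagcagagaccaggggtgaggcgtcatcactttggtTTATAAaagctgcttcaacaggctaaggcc
Il4, chr11:53618666-53618915, minus strand: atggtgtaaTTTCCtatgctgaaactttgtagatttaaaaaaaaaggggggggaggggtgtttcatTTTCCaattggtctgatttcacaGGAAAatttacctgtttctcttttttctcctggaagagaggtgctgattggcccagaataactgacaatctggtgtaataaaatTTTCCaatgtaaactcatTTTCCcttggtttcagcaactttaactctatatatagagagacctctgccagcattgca
Areg, chr5:91139349-91139598, plus strand: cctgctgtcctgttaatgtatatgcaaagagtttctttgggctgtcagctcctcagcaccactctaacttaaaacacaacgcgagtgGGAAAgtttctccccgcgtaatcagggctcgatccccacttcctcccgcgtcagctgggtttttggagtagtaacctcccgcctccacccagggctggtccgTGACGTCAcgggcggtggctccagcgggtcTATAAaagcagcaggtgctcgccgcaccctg

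The GGAAA core was present upstream of 9 of 10 members, with Il17a the exception, against 55.6% of 32851 windows in the RefSeq table. Il4 had 5 such matches and Il13 had 4, while Il5 had 2 and Areg had 1. GATAA was present upstream of Il13, Il6, Il3 and Csf2, against 22.6% of all windows. TGANTCA was present upstream of Il9, Il6 and Il17a, against 6.75%. Areg was the member with the full TGACGTCA, 61 to 54 bases before its start, a sequence held by 1.55% of windows. TATAA was present upstream of Il5, Il13, Il2, Il3, Areg and Il17a, against 22.8% of windows. It began 31 bases before the start in Areg, Il2 and Il17a, 29 in Il3 and 214 in Il5. In Il13 it began 29 bases before the start, and a match that begins 30 bases before it overlaps this one on the other strand. The Il5 match is also on the other strand. The RefSeq start of Csf2 lies 232 bases from the GENCODE start, so its window was counted but is not shown. These matches describe letters in a window and not binding.

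The members also shared a feature downstream of their coding sequence, which was looked up after the expression values were known. ATTTA, the core of AU-rich elements that mark short-lived mRNAs, was counted in the 3′ UTR of each gene (longest in GENCODE vM21). At least 5 copies per kb were present in 9 of 10 members, against 7.58% of 20674 genes with a 3′ UTR of 50 bases or more. Part of this count rests on few copies in short UTRs, with 1 in 101 bases in Il3, 2 in 104 in Il4 and 3 in 86 in Il9. Csf2 had 9 copies in 317 bases, Areg 4 in 253 and Il2 7 in 581. Il5 had 7 copies in 1092 bases, or 6.41 per kb. Il13, the exception, had 3 copies in 741 bases, or 4.05 per kb, where the median gene had 1.28.

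Levels of the members ran over more than 4 orders of magnitude, and Csf2 was the most abundant in both libraries. Because this chemistry counts 1 tag at the 3′ end of each mRNA, CPM were compared between genes without division by length. Csf2 stood at 1116 CPM (1107 to 1125) in WT and 1463 (1453 to 1473) in Pac1-/-, rank 144 and 121 among all genes. Areg followed with 785 CPM (777 to 792) and 795 (787 to 802). Il5 stood at 718 CPM (711 to 725) in WT and 405 (400 to 410) in Pac1-/-, rank 211 and 314. These 3 genes were thus far above Il13, which was at 190 CPM (187 to 194) and 149 (146 to 152).

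Il2 was lower still, at 65.9 CPM in WT and 71.1 in Pac1-/-, followed by Il4 at 22.2 CPM (20.9 to 23.4) and 19 (17.9 to 20.1). Il6 stood at 7.13 CPM (6.44 to 7.87) in WT and 6.22 (5.6 to 6.9) in Pac1-/-. Il17a stood at 3.46 CPM (2.99 to 3.99) in WT and 7.3 (6.63 to 8.03) in Pac1-/-. Il6 was therefore above Il17a in WT, whereas in Pac1-/- their intervals overlapped. Il9 was counted in 12 and 22 UMIs, or 0.22 and 0.377 CPM, and Il3 in 5 and 3 UMIs. All other neighbours in this order had intervals that did not overlap, except Il9 and Il3 in WT.

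**Figure D1:**
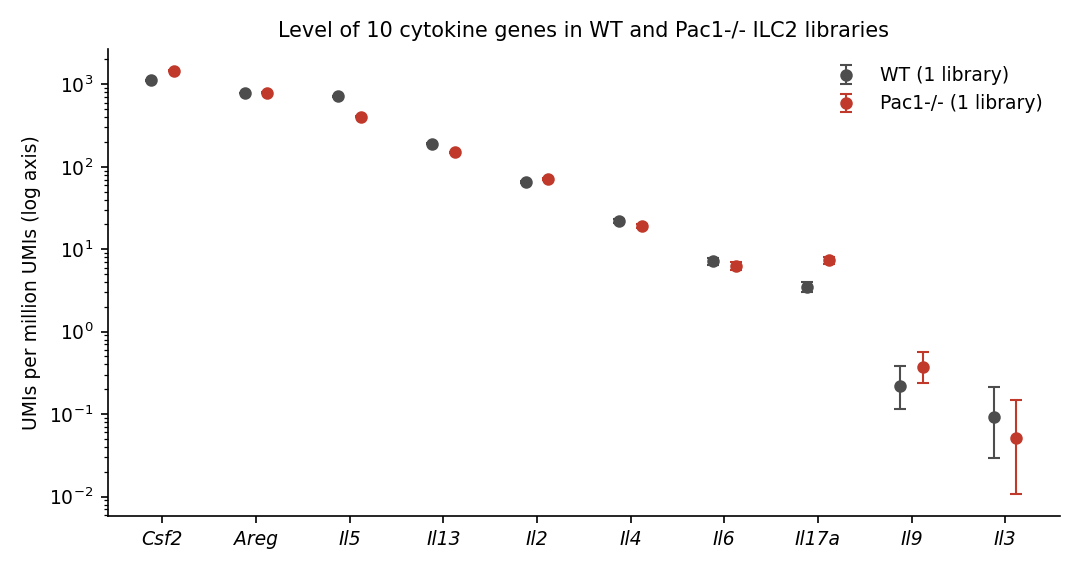
Level of each member gene in CPM (log axis) in the WT and the Pac1-/- library, with exact Poisson 95% intervals for counting error. Csf2, Areg, Il5 and Il13 are the most abundant, and the largest ratio between libraries among them is that of Il5, at 718 in WT and 405 in Pac1-/-.

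Il5 was lower and Il17a was higher in Pac1-/-, and the other tested members differed by less than 1.5-fold. Ratios were taken as log2 of Pac1-/- over WT CPM, minus the median over 12427 genes with at least 50 UMIs. That median was 0.19 above 0, and 8 of 10 members had enough UMIs, all but Il9 and Il3. At least 1.5-fold lower was 1 member, Il5, where 12.8% of all tested genes were. At least 1.5-fold higher was 1 member, Il17a, where 8.22% of all tested genes were, and this count was 0 without the single highest Il17a barcode of each library. Both counts are thus near what these shares would give for 8 genes. The median of the 8 members was -0.28, with 6 below and 2 above the median gene.

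Il5 had 39194 UMIs in WT and 23637 in Pac1-/-. Its relative log2 ratio was -1.01 (-1.04 to -0.99), a fold of 2.02, and 4.95% of tested genes were at or below it. Without the subtraction of the median gene it was -0.83. Il13 had 10388 and 8670 UMIs, a relative log2 ratio of -0.54 (-0.59 to -0.50) and a ratio of -0.36 as counted. Il13 thus lay just inside the 1.5-fold limit, and it passed the limit at -0.63 when each cell was weighted equally. Both genes had the lower level in Pac1-/- under each scaling tried.

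Il4 had a relative log2 ratio of -0.41 (-0.53 to -0.29) from 1209 and 1108 UMIs. Csf2 was at 0.20 (0.19 to 0.22) from 60905 and 85335 UMIs, and at 0.39 as counted. Areg was at -0.17 (-0.19 to -0.15) relative to the median gene and at 0.02 as counted, so its direction depended on the scaling. The same held for Il2, at -0.08 (-0.14 to -0.01) relative and at 0.11 as counted. Neither gene can therefore be called higher or lower. Il6 was at -0.38 (-0.59 to -0.17) from 389 and 363 UMIs. Without barcodes over 2 times the median UMIs of their library it was at 0.22. In barcodes with at least 2 ILC2 markers and no other cell type called it was at -0.60, past the 1.5-fold limit.

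**Figure D2:**
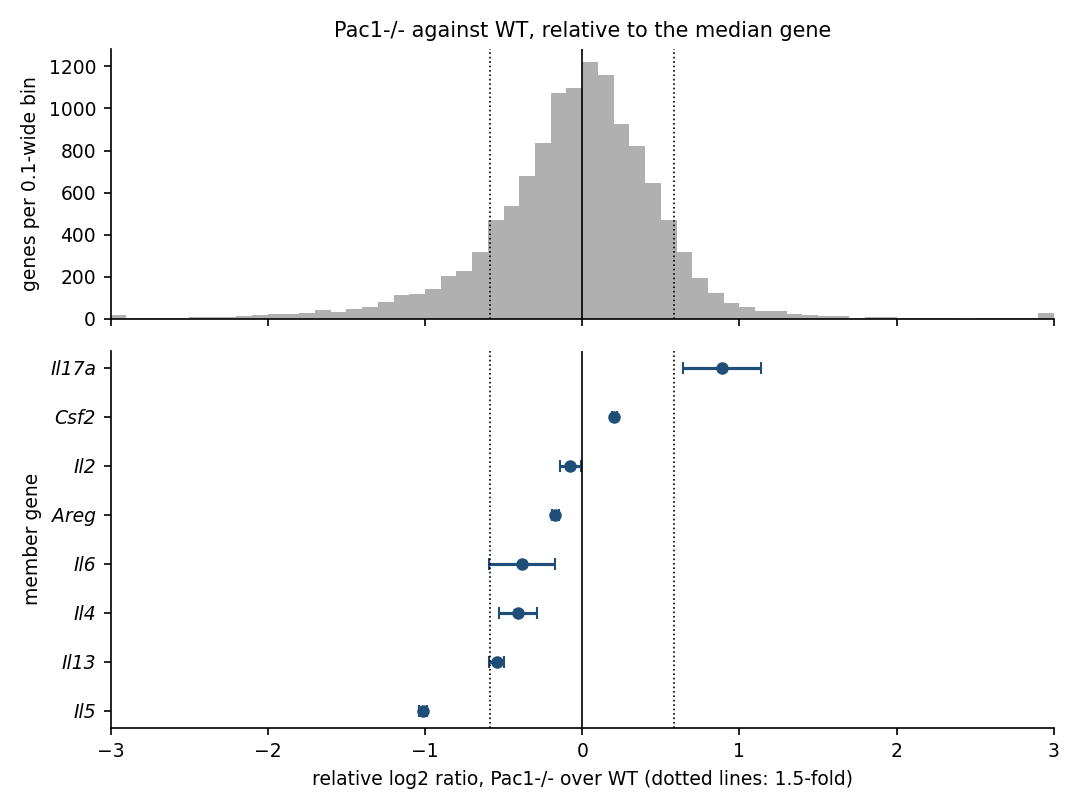
Upper panel, number of genes per bin of the relative log2 ratio (Pac1-/- over WT CPM, minus the median gene; values beyond 3 are drawn in the end bins) over 12427 genes. Lower panel, the 8 tested members with exact conditional binomial 95% intervals, among which Il5 at -1.01 and Il17a at 0.89 lie beyond the dotted 1.5-fold lines.

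Barcodes that failed the filter held 1051 Il5 UMIs in WT and 632 in Pac1-/-, or 656 and 325 CPM. Il13 stood there at 165 CPM (145 to 186) in WT and 90 (77.2 to 104) in Pac1-/-, so both genes had the same direction as in the kept barcodes. Areg, whose intervals overlapped between the libraries in kept barcodes, was here at 836 CPM (792 to 882) in WT and 721 (683 to 759) in Pac1-/-. Il4 and Il6 were higher in Pac1-/- there, but with intervals that overlapped between libraries, with Il4 at 15 CPM (9.59 to 22.3) and 24.7 (18.2 to 32.7), and Il6 at 3.12 CPM (1.01 to 7.28) and 6.69 (3.56 to 11.4). Csf2 was at 1201 and 1374 CPM. These barcodes come from the same droplet runs and are no replicate.

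The lower level of Il5 came mostly with fewer positive cells and less with fewer UMIs in each. For shares of cells, every cell was thinned at random to 1500 UMIs, which left 7634 WT and 6564 Pac1-/- cells and dropped 760 and 523 shallower ones. Il5 was present in 32.4% of WT cells (31.4 to 33.5, exact Clopper-Pearson interval), against 19.2% of Pac1-/- cells (18.3 to 20.2). Before thinning the shares were 53.1% and 39.5%. The share in Pac1-/- was 0.593 times that in WT, whereas the mean UMIs per positive cell were 0.928 times, at 2.9 and 2.69.

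For Il13 the share was 13.8% (13.1 to 14.6) in WT and 9.13% (8.44 to 9.85) in Pac1-/- at this depth, and 28.8% and 21.4% before thinning. Positive cells held 1.96 Il13 UMIs in WT and 2.21 in Pac1-/-. Cells with 10 or more Il13 UMIs made up 0.196% and 0.229%, which was 15 cells in each library. The class of 5 to 9 UMIs held 71 WT cells (0.93%) and 50 Pac1-/- cells (0.762%). Before thinning, 273 WT cells (3.25%) and 256 Pac1-/- cells (3.61%) held 10 or more. Depth was not matched there, with medians of 4186.5 UMIs in WT and 5577 in Pac1-/-. Il13 was thus found in fewer Pac1-/- cells. The share with 10 or more UMIs was not lower, but at matched depth it rests on 15 cells in each library.

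Csf2 was found in the most cells, in 50% (48.8 to 51.1) of WT and 51.7% (50.4 to 52.9) of Pac1-/- cells at matched depth, against 67.3% and 72.5% before thinning. Its positive cells held 3.06 UMIs in WT and 3.77 in Pac1-/-, and cells with 10 or more made up 2.03% and 4.08%. Areg was found in 40.9% (39.8 to 42) and 35.6% (34.4 to 36.7) of cells, and in 60.1% and 56.1% before thinning. Its positive cells held 2.64 and 2.94 UMIs. For both genes the UMIs per positive cell were higher in Pac1-/-, by factors of 1.23 for Csf2 and 1.12 for Areg.

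The share of Il2 was 7.7% in WT and 7.72% in Pac1-/- at matched depth, and 19.9% and 25.5% before thinning. The gap before thinning was thus not present at matched depth. Il4 was found in 2.8% and 2.48% of thinned cells (8.42% and 9.44% before), and Il6 in 0.734% and 0.655% (2.93% and 2.58% before). Il17a was found in 19 and 11 thinned cells, Il9 in 3 and 2, and Il3 in 1 and 1. Before thinning, Il9 was found in 7 WT and 9 Pac1-/- barcodes and Il3 in 3 and 3, so both were scarce at either depth.

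**Figure D3:**
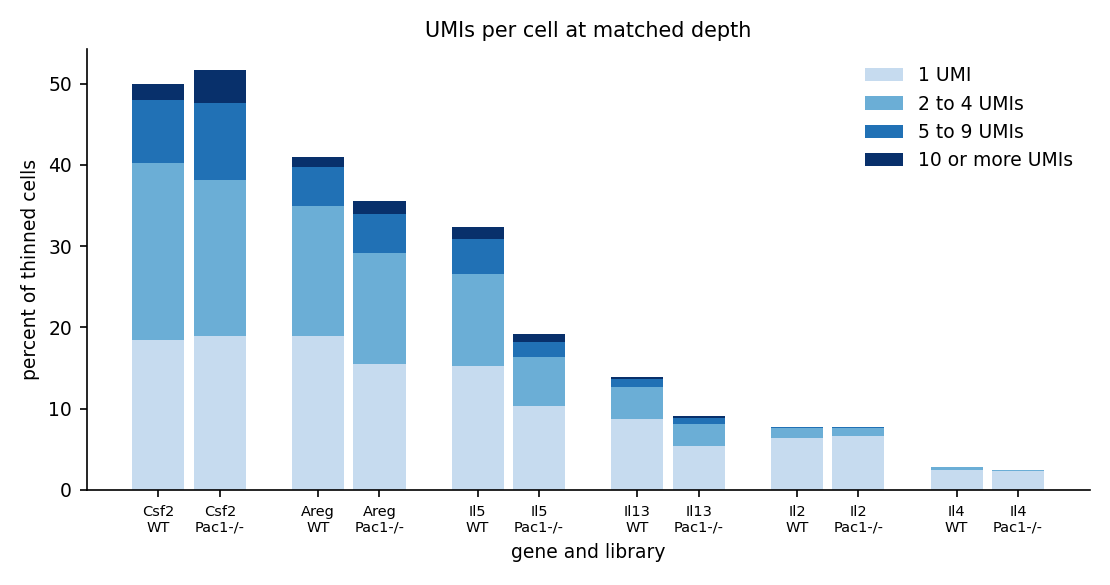
Percent of cells with 1, 2 to 4, 5 to 9 and 10 or more UMIs of 6 member genes, each cell thinned to 1500 UMIs (7634 WT and 6564 Pac1-/- cells). The Il5 bar is lower in Pac1-/- than in WT (19.2% against 32.4%), and the class of 10 or more Csf2 UMIs is larger (4.08% against 2.03%).

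Free RNA in the droplets adds UMIs to cells that do not make a gene, so the shares were set beside barcodes led by markers of another cell type, 15 in WT and 43 in Pac1-/- at 1500 UMIs (median depths 3197 and 3926 UMIs before thinning). Il5 was present in 1 of the 15 and 0 of the 43, and the latter allows a share of up to 6.98% by a floor of 3 counts, or 8.22% by the Clopper-Pearson bound. Il13 was present in 0 of the 15, which allows up to 20% by the same floor or 21.8% by the Clopper-Pearson bound, and 0 of the 43. The Pac1-/- shares of Il5 and Il13 in all cells lie above both limits, whereas the 15 WT barcodes are too few to set such a limit for Il13. For Il5 their interval (0.169 to 31.9) reaches nearly to the WT share of 32.4%.

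Csf2 was present in 33.3% (11.8 to 61.6) of the 15 and 27.9% (15.3 to 43.7) of the 43, and Areg in 20% and 9.3%. Among the 16 Pac1-/- barcodes led by B cell markers, 5 held Csf2 and 1 held Areg. Among the 7 such WT barcodes, 0 held Csf2 and 1 held Areg. The 5 WT barcodes with Csf2 were 3 led by erythroid markers, 1 by T cell markers and 1 by stromal markers. The WT shares of Csf2 (50%) and Areg (40.9%) in all cells lie inside the intervals of the 15 barcodes (11.8 to 61.6 and 4.33 to 48.1), so these few barcodes do not separate them from background. The Pac1-/- shares (51.7% and 35.6%) lie above the intervals of the 43 (up to 43.7 and 22.1). The part of free RNA in both was not tested. Il4 was present in 1 of the 15 and 2 of the 43 (4.65%), and Il6 and Il2 each in 0 and 2. In Pac1-/- the Il4 positives were 1 mast cell or basophil barcode and 1 T cell barcode, and the Il6 positives 1 mast cell or basophil barcode and 1 stromal barcode, types that can make these genes. These barcodes are thus no clean background for Il4 and Il6, and their shares are not read as shares of expressing cells. The Pac1-/- share of Il2 (7.72%) lies inside the interval of the 43 barcodes (0.568 to 15.8), and its WT share under the bound of 21.8% for the 15, so the shares of Il2, and the pairs made with it, are not separated from background either. Of the 2 Il2 positives 1 was a T cell barcode, a type that makes IL-2.

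Within each library the major cytokines were concentrated in part of the cells. Before thinning, where depth was not matched, the richest 1% of cells held 15.8% of Il5 UMIs in WT and 23% in Pac1-/-. For Il13 the richest 1% held 23.4% and 33.5%. Csf2 was spread more widely, with 11.1% and 13.1% in the richest 1%. The single highest cell, also before thinning, held 166 Il5 UMIs in WT and 232 in Pac1-/-, and 119 and 306 Csf2 UMIs. Variance over mean across thinned cells ranked Il5 at 14 and 33, Csf2 at 21 and 26, Areg at 24 and 38 and Il13 at 31 and 41, out of 8958 WT and 8917 Pac1-/- genes. All of them thus ranked near the top by this measure. It can rise with the level of a gene, and genes were not matched for level.

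Il5 and Il13 were found in the same cell more often than their shares would give if independent. In WT, 537 cells held both, where 343 were expected, a ratio of 1.57 (1.44 to 1.7). In Pac1-/-, 255 cells held both, where 115 were expected, a ratio of 2.22 (1.96 to 2.5). This ratio can reach at most 3.08 in WT and 5.21 in Pac1-/-, because Il5 was found in fewer Pac1-/- cells. The phi coefficient, a correlation of presence and absence across cells, was 0.16 and 0.19. It is a description of cells from 1 library each.

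Among Il5-positive cells, Il13 was found in 21.7% in WT and 20.2% in Pac1-/-. Among Il5-negative cells it was found in 10.1% and 6.49%. Conversely, Il5 was found in 50.8% and 42.6% of Il13-positive cells, and in 29.5% and 16.9% of Il13-negative cells. The ratio between genotypes of these conditional shares was thus further from 1 among cells without the partner cytokine. The share of cells with both was 7.03% in WT and 3.88% in Pac1-/-.

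Il4 was also found with Il13 more often than independence gives, whereas with Il5 it was not distinguishable from independence. The 3 genes are neighbours, and Il4 lies next to Il13. Il13 and Il4 shared 55 WT cells against 29.6 expected, a ratio of 1.86 (1.4 to 2.41). In Pac1-/- they shared 30 cells against 14.9, a ratio of 2.02 (1.36 to 2.88). Il5 and Il4 gave 0.98 (0.762 to 1.24) in WT and 1.15 (0.806 to 1.59) in Pac1-/-. These counts are small, and the intervals of the latter pair leave room for a modest excess or deficit.

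Csf2 and Areg, on different chromosomes, were found together in 1880 WT cells (ratio 1.21; 1.16 to 1.25) and 1511 Pac1-/- cells (1.25; 1.2 to 1.31). Areg was found with Il5 at 1.28 (1.21 to 1.34) in WT and 1.55 (1.44 to 1.66) in Pac1-/-, and with Il13 at 1.3 and 1.6. Csf2 was found with Il5 at 1.21 and 1.28 and with Il13 at 1.24 and 1.34. All 6 pairs among Il5, Il13, Csf2 and Areg therefore had intervals above 1 in both libraries.

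For Il2, presence with Il5 or Il13 was not distinguishable from independence. With Il5 it gave 0.928 (0.798 to 1.07) in WT and 0.934 (0.753 to 1.15) in Pac1-/-, and with Il13 it gave 1.04 and 1.17. With Csf2 it gave 1.16 (1.04 to 1.28) and 1.14 (1.01 to 1.27). Without thinning, Il2 and Il5 gave 1.25 and 1.32, so for that pair a value above 1 appeared where depth was not matched.

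Over the 19 pairs with at least 5 expected cells in both libraries, 16 were above 1 in WT and 17 in Pac1-/-. Intervals lay above 1 for 8 pairs in each library and below 1 for 0. The share over pairs of all genes was not counted, so no count of pairs here is read as particular to the members. The 6 pairs of chromosome 11 genes had a median ratio of 1.23 in WT and 1.31 in Pac1-/-, and the other 13 pairs had 1.2 and 1.17. Pairs share cells and genes and are not independent of each other.

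Cells tended to hold several members or none. No member was found in 22.6% of WT cells (21.6 to 23.5), where independence would give 15.3%, and in 28.5% of Pac1-/- cells (27.4 to 29.6), where it would give 20.4%. At least 4 members were found in 4.99% of WT cells against 2.13% expected, and in 3.37% of Pac1-/- cells against 0.985%. Cells with 1 or 2 members were fewer than expected in both libraries. All of Il5, Il13, Csf2 and Areg were found in 225 WT cells (2.95%; 0.917% expected) and 136 Pac1-/- cells (2.07%; 0.322% expected).

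**Figure D4:**
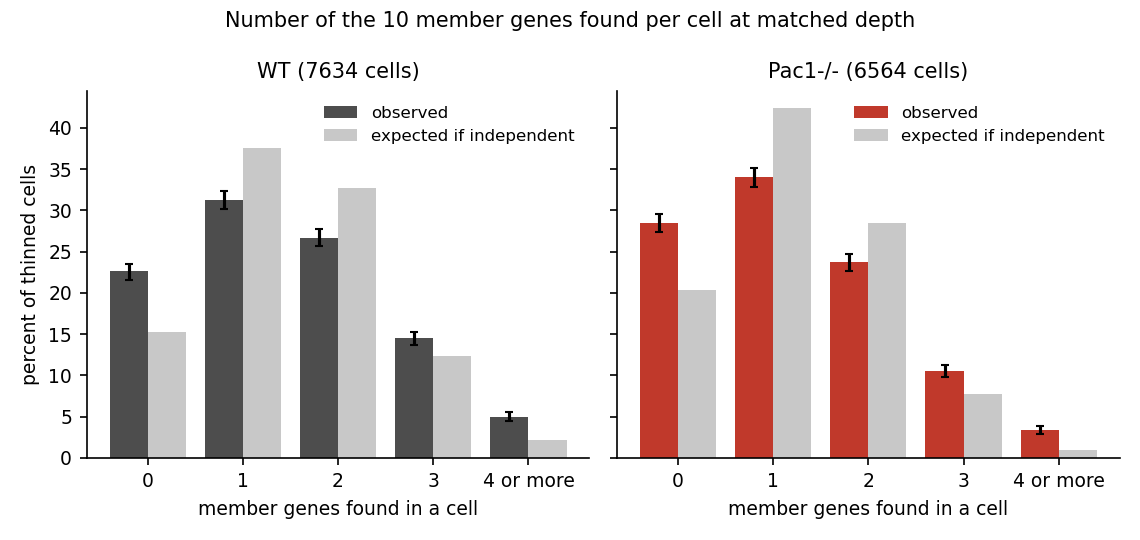
Percent of thinned cells in which 0, 1, 2, 3 or at least 4 of the 10 member genes were found (bars with exact Clopper-Pearson 95% intervals), beside the percent expected if the genes were independent with the same shares. The classes 0 and 4 or more exceed expectation in both libraries, at 22.6% against 15.3% and 4.99% against 2.13% in WT.

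Combinations of these 4 genes differed in how their share of cells compared between genotypes. Cells with Il5 alone of the 4 made up 6.17% in WT (5.64 to 6.73) and 3.17% in Pac1-/- (2.76 to 3.62), 0.514 times. Cells with Il13 alone made up 1.85% and 1.02%, 0.553 times. The other classes with both Il5 and Il13 were lower too. Cells with Il5 and Il13 without Csf2 or Areg made up 0.996% and 0.411%, those with Areg added 1.36% and 0.594%, those with Csf2 added 1.73% and 0.807%, and those with all 4 made up 2.95% and 2.07%. Cells with Csf2 alone made up 15.1% in WT (14.3 to 15.9) and 21.9% in Pac1-/- (20.9 to 22.9), and cells with none of the 4 made up 24.8% and 31.2%.

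Il17a, the member past 1.5-fold higher in Pac1-/-, came from very few cells. It was found in 53 of 8394 WT barcodes and 35 of 7087 Pac1-/- barcodes before thinning, or 0.631% (0.473 to 0.825) and 0.494% (0.344 to 0.686). The relative log2 ratio was 0.89 (0.64 to 1.14), yet the share of positive cells was not higher. The richest Pac1-/- cell held 144 of 426 UMIs, and the richest WT cell 19 of 189. The 20 richest cells held 95.8% of Il17a UMIs in Pac1-/- and 79.9% in WT. Without the highest barcode of each library, an alternative chosen after the data were seen, the relative log2 ratio was 0.45, under 1.5-fold. Outside the 20 richest cells Il17a stood at 0.701 CPM in WT and 0.31 in Pac1-/-. These cells were picked by their Il17a counts, so the latter values describe only how unevenly the UMIs lay. Without barcodes over 2 times the median UMIs the relative log2 ratio was 2.06, and without predicted doublets it was 1.34.

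Barcodes with at least 10 Il17a UMIs numbered 5 in WT and 8 in Pac1-/-. All 13 held UMIs of Gata3, Rora and Il1rl1, with 57 to 199 ILC2 marker UMIs in WT and 49 to 297 in Pac1-/-. Over the 7 type 3 lymphocyte markers they held 0 to 2 UMIs in WT and 0 to 12 in Pac1-/-. Cd3e, Cd3d, Trdc and Il23r were at 0 in all 13, whereas Cd3g was found in 3 WT and 3 Pac1-/- barcodes. Over all kept barcodes, Il23r was found in 0% of either library, and Cd3e, Cd3d and Trdc in 1.74% to 3.77%. Zeros of genes this rare do not set the 13 barcodes apart from the others. Cd3g was found in 33.5% of all WT and 26.7% of all Pac1-/- barcodes. Over the 9 T cell markers the 13 barcodes held 4 to 9 UMIs in WT and 1 to 51 in Pac1-/-. ILC2 markers were thus present in all 13, and the part of T cells and type 3 lymphocytes in the Il17a level was not tested.

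Other members were found in the same barcodes. All 5 WT barcodes with at least 10 Il17a UMIs held Il5, Il13, Csf2, Areg and Il2. Of the 8 in Pac1-/-, 8 held Areg (1 to 65 UMIs), 6 held Il13, 6 held Il5, 5 held Csf2 and 3 held Il2. These barcodes were chosen for their Il17a counts, and their depth was not matched. Il17f, the neighbouring gene of the family, was found in 1 of the 13.

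Il6 had part of its UMIs in barcodes with markers of mast cells and basophils. The highest Il6 barcode in WT held 42 Il6 UMIs with 20 UMIs of those markers and 57 of ILC2 markers. The highest in Pac1-/- held 45 Il6 UMIs, with 21 and 20. These 2 barcodes thus carried markers of both kinds. Barcodes with at least 10 mast cell and basophil UMIs numbered 5 in WT and 8 in Pac1-/-, and they held 10.8% and 18.2% of Il6 UMIs. Outside these barcodes Il6 stood at 6.36 CPM in WT and 5.1 in Pac1-/-. The part of mast cells in the Il6 ratio was not tested. For Il4 the same barcodes held 0% and 0.993% of UMIs.

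The genes with a presence most like that of a member were ranked by the smaller of its phi coefficients in the 2 libraries, among 7773 other genes found in at least 1% of thinned cells. Il5 was most like Crem (0.24 in WT and 0.26 in Pac1-/-), Hilpda (0.24 and 0.25) and Nr4a3 (0.22 and 0.23). Il13 was most like Il5 (0.16 and 0.19), Hilpda (0.13 and 0.16) and Nr4a3 (0.12 and 0.17). Crem is a factor of the cAMP response, Nr4a1 and Nr4a3 are orphan nuclear receptors induced by activation, and Hilpda coats lipid droplets. Csf2 was most like Nr4a1 (0.21 and 0.23), Pim1 (0.19 and 0.22) and Rel (0.19 and 0.19). Areg was most like Hilpda (0.22 and 0.30), Cxcl2 (0.22 and 0.25) and Atf3 (0.21 and 0.27), a stress-induced transcription factor. Hilpda was thus near the top for Il5, Il13 and Areg.

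For the sparse members these values were weaker. Il4 reached 0.06 and 0.05 with Il13, followed by Snhg15 and Lamtor1. Il2 reached 0.05 with Bhlhe40, Zfp36 and Cd69 in both libraries. Values of this size in sparse counts are no more than an order of genes.

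Receptors of the members were read in the same cells. Of 17 receptor genes 10 had enough UMIs, and 5 were at least 1.5-fold lower in Pac1-/- and 0 higher, with a median relative log2 ratio of -0.36. Of all tested genes, 12.8% were as much lower and 8.22% as much higher, as given above. Il2rb, a chain of the IL-2 receptor, stood at 188 CPM in WT and 104 in Pac1-/- (-1.05). Il17ra stood at 91 and 53 CPM (-0.97; -1.03 to -0.90), and Il4ra at 135 and 79.2 CPM (-0.96; -1.01 to -0.91). The other 2 that were lower were Il2rg and Il2ra. Il5ra, both Il13 receptor genes and Egfr were among the 7 with under 50 UMIs.

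All 21 listed transcription factors of the type 2 cytokine genes had enough UMIs, with 3 at least 1.5-fold lower (12.8% of all tested genes were), 0 higher and a median of -0.19. The count of lower factors is thus near the share over all genes. Irf4 stood at 20.3 and 9.67 CPM (-1.26; -1.41 to -1.11), Nfil3 at 115 and 71.9 CPM (-0.87; -0.93 to -0.81) and Rora, a lineage factor of ILC2s, at 2265 and 1686 CPM (-0.61; -0.63 to -0.60). Rad50, Irf1 and Slc22a5 had the largest ratios of 6 tested neighbours of the chromosome 11 genes, at -0.46, -0.16 and 0.14. The median of the 6 was -0.02, and 0 of them reached 1.5-fold in either direction. Among 9 tested regulators of AU-rich mRNA, 1 was at least 1.5-fold lower, Rc3h1 (-0.59; -0.65 to -0.53), again near the 12.8% over all genes. None were higher, against 8.22%, and the median was 0.12. Zc3h12a was at -0.46 and Tia1 at 0.42.

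Of 26 other cytokines and growth factors 21 were tested, with 6 lower (12.8% of all tested genes were), 4 higher (8.22% of all tested genes were) and a median of -0.17. The largest ratios belonged to sparse genes. Of the 4 higher genes (Ifng, Ltb, Il1b and Cxcl3), Ifng and Il1b reached 50 UMIs only through Pac1-/-, so their place among the higher genes was fixed by that filter and the count of 4 is not read against the share over all genes. Il1b had 8 UMIs in WT and 102 in Pac1-/-, of which 93 lay in 1 barcode that markers placed in another cell type. Ifng had 4 and 48 UMIs (3.30; 1.85 to 5.23), and the 48 lay in 17 cells. Il17f had 105 UMIs in 28 WT cells and 40 in 13 Pac1-/- cells (-1.68; -2.24 to -1.14), the opposite direction to Il17a.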

How the data were processed

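Live lung ILC2s of each genotype were pooled by the authors and made into 1 library each with 10x Genomics 3′ chemistry (v3.1). The authors deposited UMI counts for each gene in each called barcode, made with Cell Ranger against mm10. The submitters' processing notes give version 6.1.1 and the file header 4.0.0, and no normalization had been applied. No column of values was left unmapped.

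The 10 members and the gene lists were chosen with earlier results of these data known. Barcodes with at least 500 genes and at most 10% mitochondrial UMIs were used, and doublets were not removed except in an alternative that took out 730 WT and 538 Pac1-/- barcodes by their likeness to simulated doublets. Counts were summed per library and divided by 54579034 and 58338886 UMIs to give CPM. Ratios are relative to the median of 12427 genes with at least 50 UMIs. Intervals are 95% and cover counting error only. They are exact Poisson for CPM, Clopper-Pearson for shares, and conditional binomial for ratios. Cells were thinned once to 1500 UMIs, the largest of 5 depths that kept 90% of both libraries. Scripts were tested on simulated data.

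Cell types were called from marker lists, where a barcode needed at least 3 markers of 1 list and more UMIs of it than of ILC2 markers. Named genes were the members, Dusp2, Gata3, Il1rl1, the 3 genes most like each member found in 1% of cells, and the 3 of largest absolute ratio in each list. Genes named for the Il17a and Il6 barcodes, and Il2rg, Il2ra, Ltb, Cxcl3 and the untested receptors, were named after their values were seen. Python 3.11.15, numpy 2.4.6, scipy 1.17.1, pandas 2.3.3 and scikit-learn 1.9.0 were used. Each mRNA gave 1 tag, so counts do not scale with length, and UMIs in overlapping genes of opposite strands (Il5, Il2 and Csf2) rest on the strand read by Cell Ranger. The alternatives were other scalings, thinning depths and barcode sets. Promoters came from RefSeq GRCm38.p6, where 10 of 10 members matched, and gene models from GENCODE vM21.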

Additional observations from a re-analysis of the deposited data

How the results depend on the processing

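No paired analysis was possible because each genotype had 1 library. As counted, without the median gene, the log2 ratio was -0.83 for Il5 and -0.36 for Il13. It was -0.99 for Il5 against the median of all genes with a UMI in both libraries. Without barcodes over 2 times the median UMIs it was -1.05 for Il5 and -0.63 for Il13. For Il13 it was -0.63 with each cell weighted equally and -0.48 without predicted doublets. Il5 and Il13 kept the lower level in Pac1-/- in all 9 alternatives. The number of members at least 1.5-fold lower was 2 with equally weighted cells and without the deepest barcodes (Il5 and Il13), and 2 in barcodes with ILC2 markers and no other type called (Il5 and Il6). At 2-fold, 0 members were higher. The number at least 1.5-fold higher was 0 without the highest barcode of the gene in each library, where Il17a was at 0.45. That alternative was chosen after the data were seen. Shares over all tested genes were taken for the main 1.5-fold setting alone, so the counts under other settings have none beside them. Il5 with Il13 gave 1.38 in WT and 1.82 in Pac1-/- thinned to 3000 UMIs, 1.43 and 1.67 not thinned, and 1.72 and 2.56 without the deepest barcodes, all above 1. Among the other members, Il6 was at 0.22 without the deepest barcodes, against -0.38, and Il17a was at 2.06 there, against 0.89. Of 54 other ratios 14 left their counting interval, as did 20 of 288 other pair values. Neither member past 1.5-fold, Il5 or Il17a, changed sign, whereas Il6 did as above and, as counted, Il2 (from -0.08 to 0.11) and Areg (from -0.17 to 0.02). The causes were not tested. Depth limits Il9 and Il3, which had under 50 UMIs, and every pair with under 5 expected cells.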
